A study of Homo sapiens with 4 samples.

Results

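AP-1 is a family of transcription factors that bind DNA as pairs, and it was described here through 10 genes: FOS, FOSB, FOSL1 and FOSL2 (the FOS side), JUN, JUNB and JUND (the JUN side), and the related factors ATF3, BATF3 and MAFF. Every probe set whose only gene symbol in the array annotation was one of these 10 was taken, which gave 23 of the 54613 probe sets in the table (8 on the FOS side, 9 on the JUN side and 6 for the other 3 genes). A probe set is a group of short array probes read as 1 value. Each gene is represented by its brightest probe set, that with the highest mean over all arrays, and the others are given beside it. In the same way 19775 genes of the table had 1 value each.

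All AP-1 proteins carry a basic region that contacts DNA and a leucine zipper that joins them in pairs. JUN proteins can pair with one another or with FOS proteins, while FOS proteins need a partner such as a JUN protein. FOS, FOSB, JUN, JUNB and ATF3 belong to the immediate early genes, which growth factors and stress switch on briefly through MAP kinases, and FOSL1 is known for lasting expression in epithelial tumours with an active RAS pathway. ATF3 and BATF3 are zipper proteins that pair with JUN proteins, and MAFF is a small MAF protein, which lacks an activating domain and also pairs with NRF2 and related factors.

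The cells were HuCCT1, an established human line from a cancer of the bile ducts, grown in RPMI medium with serum, and total RNA was measured on 4 Affymetrix 3′ arrays. The labels give 2 arrays as ARID1A wild type and 2 as ARID1A knockout. ARID1A is a subunit of the SWI/SNF chromatin remodelling complex. The knockout was made with a lentivirus carrying Cas9 and 1 guide RNA, puromycin selection and cloning by limiting dilution, and the labels do not say whether the wild-type cells received a control vector. Nor do they state if replicate arrays stand for separate cultures or separate clones. The p-values therefore rest on a spread between arrays that could be technical.

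A check for mixed-up samples divided the arrays into 2 and 2 that did not match each other, so clone, origin of the cells and ARID1A status cannot be told apart, and the groups are named by their labels. ARID1A itself stood at 8.55 and 8.61 in the wild type and at 6.15 and 5.95 in the knockout-labelled arrays (log2 difference −2.53 ± 0.13, SE, limma adjusted p = 0.000395). This knockout-labelled mean of 6.05 lay at percentile 73.9 of all probe sets. The other probe sets of ARID1A differed by −1.88, −1.89 and −0.11, and in the last the groups overlapped (limma adjusted p = 0.745). Across all probe sets arrays of 1 group correlated at 0.992 or more, and arrays of different groups at 0.928 to 0.934. Of 8 bile duct cell markers 7 had a value, and 4 of these fell and 1 rose. EPCAM fell from a wild-type mean of 12.11 to a knockout-labelled mean of 7.38, CFTR from 7.86 to 3.46, below the array medians, KRT7 from 12.45 to 10.13 and KRT19 from 11.44 to 10.52. KRT8 rose from 10.45 to 11.28, and KRT18 (12.31 and 12.55) and SOX9 (7.92 and 8.14) did not pass. The mean level of the 7 was 10.62 to 10.68 on the wild-type arrays and 9.03 to 9.10 on the knockout-labelled ones. Of 8 fibroblast markers 2 fell (COL1A1 from 8.96 to 4.20 and LUM from 6.54 to 1.31) and 1 rose (ACTA2 from 4.31 to 7.28), with a mean level of 4.84 to 4.87 against 4.02 to 4.12. Of the 8 hepatocyte, 6 endothelial and 6 leukocyte markers with a value, 1 hepatocyte marker rose and 1 leukocyte marker fell. The part of any of these in the AP-1 results was not tested.

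MAFF, FOSL2 and FOSL1 were lower and JUND was higher in the knockout-labelled arrays, 4 of the 10 AP-1 genes, by limma with a Benjamini-Hochberg adjusted p under 0.05. Over all genes 34.0% passed this threshold, 18.8% higher and 15.2% lower, so a share of 4 in 10 is near the background. Over probe sets, 9 of the 23 passed, 7 lower and 2 higher, against 26.9% of all probe sets (13.0% lower and 13.9% higher). The groups did not overlap in 15 of the 23, against 60.3% of all probe sets. In bulk RNA, fewer cells that express a gene and less of its RNA per cell cannot be told apart. Without wild-type replicate 1, or without wild-type replicate 2, only MAFF of the 10 genes passed, and the probe sets that passed fell to 2.

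**Figure D1:**
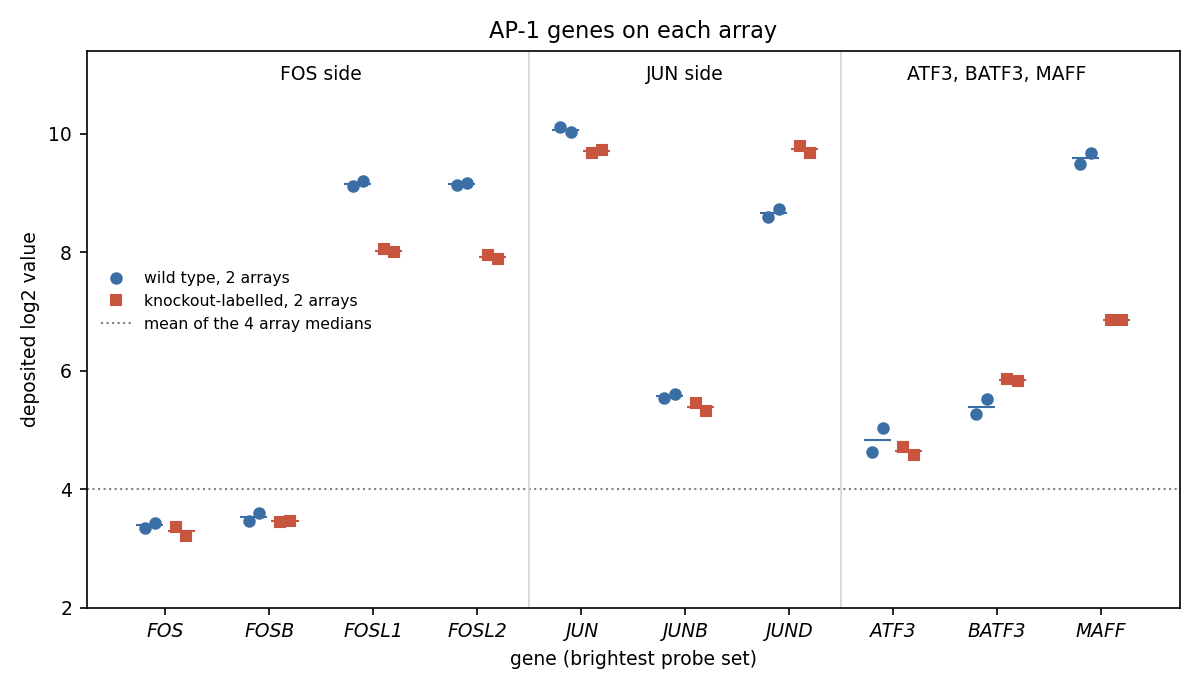
Deposited log2 value (vertical axis) of each AP-1 gene's brightest probe set on the 2 wild-type arrays (circles) and the 2 knockout-labelled arrays (squares), with short lines at the group means and a dotted line at the mean of the array medians. FOSL1, FOSL2 and MAFF lie lower and JUND higher in the knockout-labelled arrays, while FOS and FOSB lie below the dotted line in both groups. Heights of different genes come from different probes and are not comparable.

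Several AP-1 genes carry AP-1 or CRE letters at their own start. The windows searched ran from 250 bases before to 50 bases after each annotated start, in RefSeq sequence on GRCh38.p14. Of the 10 members, 8 had a window, and with alternative starts these 8 genes had 10 windows. The AP-1 site TGACTCA (both strands) was found in 1 of the 10 windows, that of FOSL2, and in 4.95% of all 35116 windows. The cyclic AMP response element TGACGTCA was found in 2, those of JUND and MAFF, and in 1.85% of all windows. The variant TGACATCA was found in 2, those of JUN and ATF3, and in 2.61% of all windows. The antioxidant response motif TGACNNNGC, the site of NRF2 with a small MAF partner, was found in 2 (MAFF and JUND, 13.3% of all windows). In both genes it lay apart from TGACGTCA, beginning at −122 in MAFF and at −230 and −90 in JUND. The CArG box, the site of the serum response factor SRF, was found in no member window and in 1.29% of all windows. Sequence outside the windows was not searched, so this does not show that a member gene lacks such a site. The sites are given in 30 bases each, 5′ to 3′ on the strand of the gene, because they belong to members that fell (MAFF and FOSL2), rose (JUND) or did not pass with their brightest probe set (JUN and ATF3). Capitals mark the matched letters.
MAFF (chr22:38201929-38201958, plus strand): ggccgggtcggTGACGTCAccgcatgactg
JUND (chr19:18281804-18281833, minus strand): ggccgcccccaTGACGTCAacccacaaggc
FOSL2 (chr2:28392850-28392879, plus strand): gtgccattgtagTGACTCAtctcgggcaga
JUN (chr1:58784096-58784125, minus strand): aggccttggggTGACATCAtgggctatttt
ATF3 (chr1:212565273-212565302, plus strand): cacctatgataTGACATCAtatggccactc
Counted from the start, the matches began at −54 in MAFF, −200 in JUND, −67 in JUN and −123 in ATF3, and at base 5 after the start in FOSL2. MAFF and JUND share TGACGTCA and moved in opposite directions. A match describes letters and was not tested as a binding site. MAFF, the member with the largest difference, is shown over the 120 bases before its start (chr22:38201874-38201993, plus strand), with the same site in capitals.
MAFF before its start: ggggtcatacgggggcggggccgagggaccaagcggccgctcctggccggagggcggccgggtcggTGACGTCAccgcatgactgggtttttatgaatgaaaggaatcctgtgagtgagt

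On the FOS side, the 2 genes that are classic immediate early genes were dim in both groups, and the 2 FOS-like genes were bright and lower in the knockout-labelled arrays. FOS, the founding partner of JUN, stood at 3.35 and 3.43 in the wild type and at 3.37 and 3.22 in the knockout-labelled arrays. These values overlapped and lay at percentile 38.2 of all probe sets in the knockout-labelled mean, below the array medians of 3.99 to 4.03. The log2 difference was −0.10, with a 95% interval of −0.41 to 0.21 (limma adjusted p = 0.62). FOSB, which has a long and a short splice form of differing activity, stood at 3.46 and 3.60 against 3.45 and 3.46. Its values also touched, since wild-type replicate 1 and knockout-labelled replicate 2 hold an identical number, and the difference was −0.07 (95% interval −0.37 to 0.22, adjusted p = 0.72). The deposited values carry no detection call, so for both genes such low numbers are not a measured level.

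FOSL1, also called FRA1, stood at 9.11 and 9.20 in the wild type and at 8.05 and 7.998 in the knockout-labelled arrays. The groups did not overlap, and arrays of a group lay within 0.09 of each other. The log2 difference was −1.13 ± 0.11 (SE, limma adjusted p = 0.00247), or 2.19-fold lower. The call was lost without wild-type replicate 1 (adjusted p = 0.0582) and without wild-type replicate 2 (adjusted p = 0.0608), with differences of −1.17 and −1.09.

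FOSL2, also called FRA2, stood at 9.14 and 9.17 against 7.96 and 7.89 in the brightest of its 5 probe sets. Both knockout-labelled arrays were lower than both wild-type arrays. The difference was −1.23 ± 0.11 (adjusted p = 0.00183), or 2.35-fold lower. Of its other 4 probe sets, in order of brightness, the first differed by −1.34 ± 0.12 (adjusted p = 0.00217) and the second by −0.85 ± 0.15 (adjusted p = 0.0145). The remaining 2 were dimmer and did not pass, at −0.40 (95% interval −0.86 to 0.07) and 0.02 (95% interval −0.34 to 0.37). All 3 lost their calls without wild-type replicate 1 or 2 (for the brightest, adjusted p = 0.0558 and 0.0557), and the mean of all 5 probe sets differed by −0.76.

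On the JUN side, JUND was higher in the knockout-labelled arrays, and the probe sets of JUN disagreed with one another. JUND, often the steadily expressed JUN protein of resting cells, stood at 8.60 and 8.73 in the wild type and at 9.80 and 9.68 in the knockout-labelled arrays in its brightest probe set. The groups lay apart by several times the gap within either of them. The difference was 1.07 ± 0.12 (adjusted p = 0.00364), or 2.11-fold higher. Without wild-type replicate 1 or 2 this call was lost (adjusted p = 0.0734 and 0.0626).

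In Affymetrix names the suffix _x_at marks probes that may also match other transcripts, and _s_at probes shared by several transcripts. The brightest probe set of JUND was an _s_at set, and every probe set of JUND carried 1 of these suffixes. The other 3 probe sets of JUND had wild-type means between 3.14 and 4.08 on the log2 scale. Of these, the probe set with the suffix _x_at and the higher signal rose by 0.68 ± 0.17 (adjusted p = 0.0411), a call lost without any 1 of the 4 arrays (adjusted p = 0.085 to 0.194). Of the remaining pair, the _x_at probe set differed by 0.28 (95% interval −0.19 to 0.76) and the _s_at probe set by −0.01 (95% interval −0.67 to 0.65). The latter held 1 identical number, 4.08, on both wild-type arrays.

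JUN, the main partner of the FOS proteins, stood at 10.11 and 10.03 in the wild type and at 9.68 and 9.73 in the knockout-labelled arrays in its brightest probe set, an _x_at set. The groups did not overlap, but the difference of −0.37 (95% interval −0.65 to −0.08) did not pass after adjustment over all probe sets (adjusted p = 0.0716). The next brightest pointed the other way, from 7.91 and 7.86 to 8.23 and 8.21 (0.33, 95% interval 0.06 to 0.61, adjusted p = 0.0857). The one after it fell from 7.32 and 7.30 to 6.74 and 6.29 (−0.79 ± 0.18, adjusted p = 0.0305). That call was lost without wild-type replicate 1 (0.224), wild-type replicate 2 (0.208) or knockout-labelled replicate 2 (limma adjusted p = 0.0633). The dimmest differed by −0.26 (95% interval −0.68 to 0.16). The 4 probe sets therefore give no single direction for JUN.

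JUNB, a JUN protein known to oppose JUN on some genes, stood at 5.55 and 5.61 in the wild type and at 5.45 and 5.32 in the knockout-labelled arrays. The groups did not overlap, and the difference of −0.19 (95% interval −0.49 to 0.11) did not pass (adjusted p = 0.311).

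**Figure D2:**
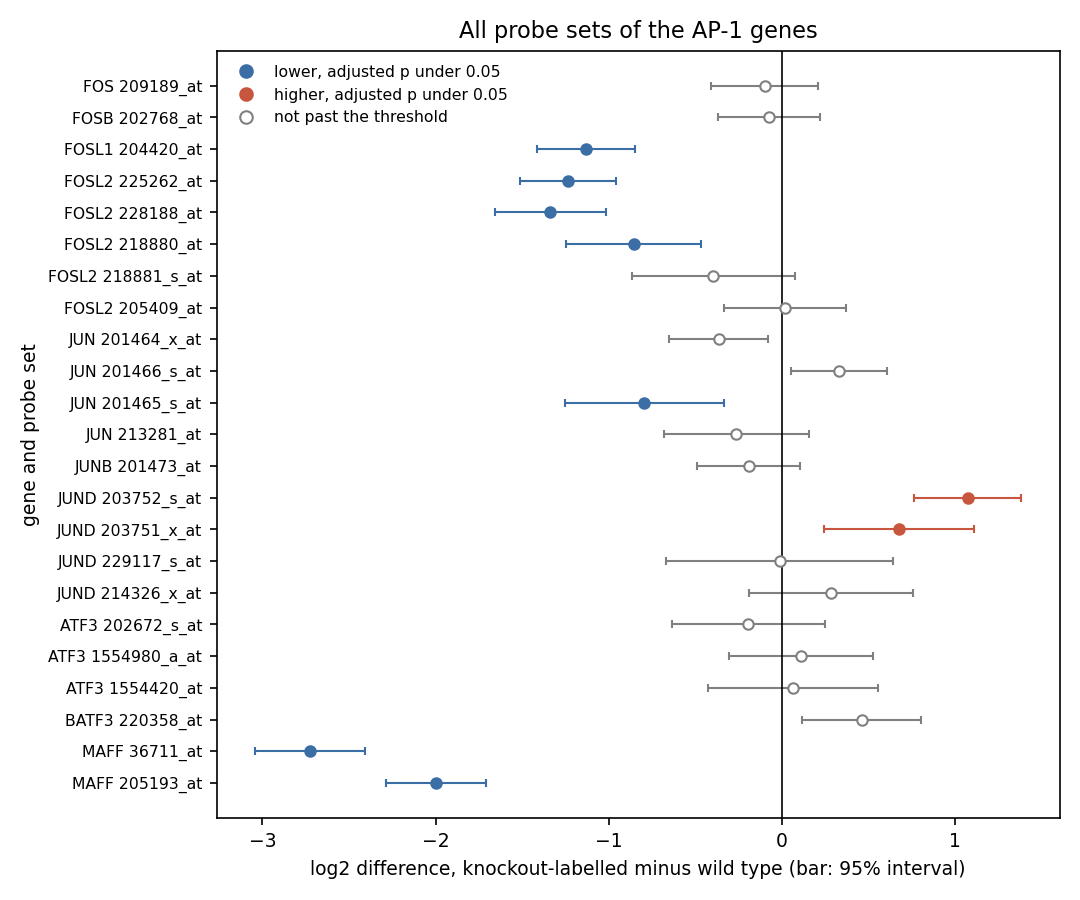
Log2 difference, knockout-labelled minus wild type (horizontal axis), of all 23 probe sets of the AP-1 genes, with 95% intervals from limma; filled points passed an adjusted p of 0.05. Both MAFF probe sets lie to the left, at −2.73 and −1.998, 3 of the 4 JUND probe sets lie to the right (2 of them filled), and the 4 JUN probe sets fall on both sides of 0.

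MAFF showed the largest difference of the 10 genes, while ATF3 and BATF3 did not pass. In its brighter probe set MAFF stood at 9.48 and 9.68 in the wild type and at 6.86 and 6.85 in the knockout-labelled arrays. Both knockout-labelled arrays lay far below both wild-type arrays. The difference was −2.73 ± 0.12 (adjusted p = 0.000312), or 6.62-fold lower. The second probe set went from 6.67 and 6.77 to 4.75 and 4.69 (−1.998 ± 0.11, adjusted p = 0.000526, or 3.995-fold lower). Both probe sets passed without any 1 of the arrays, with adjusted p from 0.0151 to 0.0385.

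ATF3, a stress-induced factor that can repress its targets, stood at 4.63 and 5.04 against 4.71 and 4.58 in its brightest probe set, with a difference of −0.19 (95% interval −0.64 to 0.25, adjusted p = 0.493). The groups overlapped, and its other 2 probe sets differed by 0.11 and 0.07 with intervals that include 0. BATF3, known for its role in dendritic cells, stood at 5.26 and 5.52 in the wild type and at 5.87 and 5.83 in the knockout-labelled arrays. These groups did not overlap, and the difference of 0.46 (95% interval 0.12 to 0.81) missed the threshold (adjusted p = 0.0632).

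Set side by side, the median log2 difference was −0.62 over the 4 FOS side genes and −0.19 over the 3 JUN side genes. The median of all genes was 0.06. No FOS side gene stood near its median, which lies between FOS (−0.10) and FOSB (−0.07) and the lower FOSL1 (−1.13) and FOSL2 (−1.23). The JUN side median is the value of JUNB, which did not pass. Over probe sets the medians were −0.62 for the 8 of the FOS side and −0.01 for the 9 of the JUN side, against 0.03 for all probe sets. Of the FOS side's probe sets 4 fell. Of the JUN side's, 1 fell and 2 rose. Over all probe sets 13.0% fell and 13.9% rose. The difference between the sides was not tested. The genes whose values followed those of MAFF most closely over the 4 arrays were KCNS3, a potassium channel subunit, S100A2, a calcium-binding protein, and AFAP1L1, an actin-associated protein. Their root mean square distances from MAFF, after each gene was centred on its own mean, were 0.03, 0.04 and 0.05 on the log2 scale. With 2 groups of 2 arrays this likeness mostly means a like difference between the groups.

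Other zipper factors that can pair with or stand in for the members changed in both directions. Of 29 listed, 25 had a value, 9 fell and 6 rose, with a median of −0.23. Over all genes 15.2% fell and 18.8% rose, which is the background for this list and those that follow. BATF, a close relative of BATF3, went from 6.37 and 6.89 to 4.50 and 4.21 (−2.28 ± 0.22, adjusted p = 0.00232). JDP2, a JUN-binding repressor, went from 7.14 and 7.32 to 5.53 and 5.41 (−1.76 ± 0.13, adjusted p = 0.00107). Both of these JUN partners were lower on every knockout-labelled array. CREM, a cyclic AMP response factor, went the other way, from 6.51 and 6.59 to 7.85 and 8.07 (1.41 ± 0.13), and all 6 of its probe sets rose. CEBPA, a liver and myeloid differentiation factor, rose from 3.42 and 3.54 to 5.12 and 4.77 (1.46 ± 0.16). Its wild-type values lay below the array medians and are not measured levels. NFE2L2, which encodes NRF2, a partner of MAFF, rose by 0.77, with 1 of its 3 probe sets past the threshold. MAFG, another small MAF, differed by −0.23 and did not pass. NFE2L2 and MAFG were chosen after their values were seen. Of the 15 that passed, 2 did when wild-type replicate 1 was left out and 1 when wild-type replicate 2 was. JDP2 passed in both of these fits, BATF only in the first (adjusted p = 0.0501 in the second), and CREM, CEBPA and NFE2L2 in neither (0.0586 to 0.0938).

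Among the kinases that lead to AP-1, 19 of 27 listed had a value, 7 fell and 3 rose (median −0.27). MAP2K6, which activates p38, went from 3.77 and 3.87 to 7.66 and 7.41 (3.71 ± 0.14, limma adjusted p = 0.000191), with 1 of its 2 probe sets past the threshold. The size of this rise is that of the deposited scale, because the wild-type values lay below the array medians and are not measured levels. MAP3K8, a kinase of inflammatory signalling, went from 7.24 and 7.19 to 4.42 and 4.11 (−2.95 ± 0.14, adjusted p = 0.000383). The stress kinase MAP3K5, or ASK1, went from 8.58 and 8.57 to 6.22 and 6.40 (−2.26 ± 0.12), and RPS6KA1, an ERK-activated kinase, from 6.003 and 6.09 to 4.65 and 4.66 (−1.39 ± 0.11). Among the 19 with a value, MAP2K6 had the largest rise and MAP3K8 the largest fall. The number past the threshold fell from 10 to 4 without wild-type replicate 1 or 2, and all 4 genes named here passed in each of those fits (adjusted p up to 0.0494).

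Of the 17 phosphatases, Sprouty and SPRED proteins that restrain MAP kinases, 6 rose and 4 fell (median 0.12). SPRY1 rose from 5.31 and 5.42 to 7.36 and 6.72 (1.67 ± 0.23), with 1 of its 2 probe sets past the threshold. DUSP5, a nuclear ERK phosphatase, rose from 6.98 and 7.18 to 8.45 and 8.38 (1.34 ± 0.12). DUSP2 fell from 5.91 and 5.83 to 4.39 and 4.50 (−1.43 ± 0.11) and DUSP10, which acts on JNK and p38, from 8.81 and 8.85 to 7.65 and 7.42 (−1.30 ± 0.13). Members of 1 enzyme family therefore moved apart. With wild-type replicate 1 left out none of the 17 passed by limma, with 10 at an unadjusted p under 0.05 in that fit, and without wild-type replicate 2 there were 2 past the threshold, DUSP5 and DUSP2 (adjusted p = 0.0479 and 0.0497).

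Of 9 genes around the serum response factor, which drives FOS and other immediate early genes, 3 rose and the other 6 did not pass (median 0.02). These were CREBBP, an acetyltransferase co-activator (0.97 ± 0.13), MRTFB, an actin-regulated co-activator (0.76 ± 0.11), and SRF itself (from 6.51 and 6.44 to 7.04 and 6.93, 0.51 ± 0.11, adjusted p = 0.0294). The other probe sets did not all pass: 2 of 4 did for CREBBP, 1 of 5 for MRTFB and 1 of 2 for SRF. None of the 9 passed by limma without wild-type replicate 1 or 2, with 3 at an unadjusted p under 0.05 in either fit. For SRF the call was lost when any 1 of the 4 arrays was left out (adjusted p = 0.0675 to 0.185).

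Of 26 other immediate early genes with a value, 7 rose and 5 fell, with a median of 0.01. CCN1, a matrix protein induced with FOS and by YAP, went from 12.61 and 12.52 to 10.65 and 10.75 (−1.87 ± 0.11). The transcription factor KLF2 rose from 6.56 and 6.45 to 8.26 and 8.21 (1.73 ± 0.11), the stress sensor GADD45G from 4.17 and 4.44 to 5.80 and 6.02 (1.60 ± 0.15), and the small GTPase RHOB from 6.82 and 7.14 to 8.26 and 8.03 (1.16 ± 0.16). For RHOB 1 of 5 probe sets passed, and for KLF2 1 of 2. Immediate early genes thus went both ways, as the AP-1 genes did. The count fell from 12 to 2, CCN1 and KLF2, without wild-type replicate 1 or 2, and RHOB was also lost without knockout-labelled replicate 1 (adjusted p = 0.0602).

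Genes known as AP-1 targets were mostly lower. Of 32 listed, 28 had a value, and 16 fell and 2 rose (median −0.75), where 15.2% of all genes fell and 18.8% rose. PTGS2, the inducible cyclooxygenase, went from 10.54 and 10.50 to 2.11 and 1.94. The cytokine IL6 went from 10.63 and 10.67 to 3.36 and 3.21, and IL11, another cytokine, from 10.04 and 10.10 to 2.61 and 2.86. The collagenase MMP1 went from 9.81 and 9.70 to 2.63 and 2.20. All 4 were bright on the wild-type arrays and below the array medians on the knockout-labelled ones, with log2 differences of −8.49 ± 0.12, −7.36 ± 0.12, −7.34 ± 0.13 and −7.34 ± 0.18 in the order given (limma adjusted p up to 8.75e-05). The sizes are those of the deposited scale, because the lower values are not measured levels. The chemokines CXCL8 and CCL2 and F3, tissue factor, fell by 7.04, 6.17 and 6.92 on the log2 scale.

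The remaining targets moved less. PLAUR, the urokinase receptor, went from 9.01 and 9.03 to 8.03 and 7.97 (−1.02 ± 0.11). The heme-degrading enzyme HMOX1 (0.80 ± 0.11) and TGFB1 (0.88 ± 0.12, in 1 of 2 probe sets) were the 2 that rose. The cell cycle gene CCND1 differed by −0.28, VEGFA by −0.38 and the growth factor HBEGF by 0.25, and these 3 did not pass. Genes here beyond the 4 with the largest differences were picked after their values were seen. Many of the targets also respond to NF-kB, and the list was made with the large falls of several of its members known, so its count is not independent evidence of a direction. The count that passed fell from 18 to 9 without wild-type replicate 1 or 2, and PLAUR, HMOX1 and TGFB1 were among those lost (adjusted p = 0.0658 to 0.0956).

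**Figure D3:**
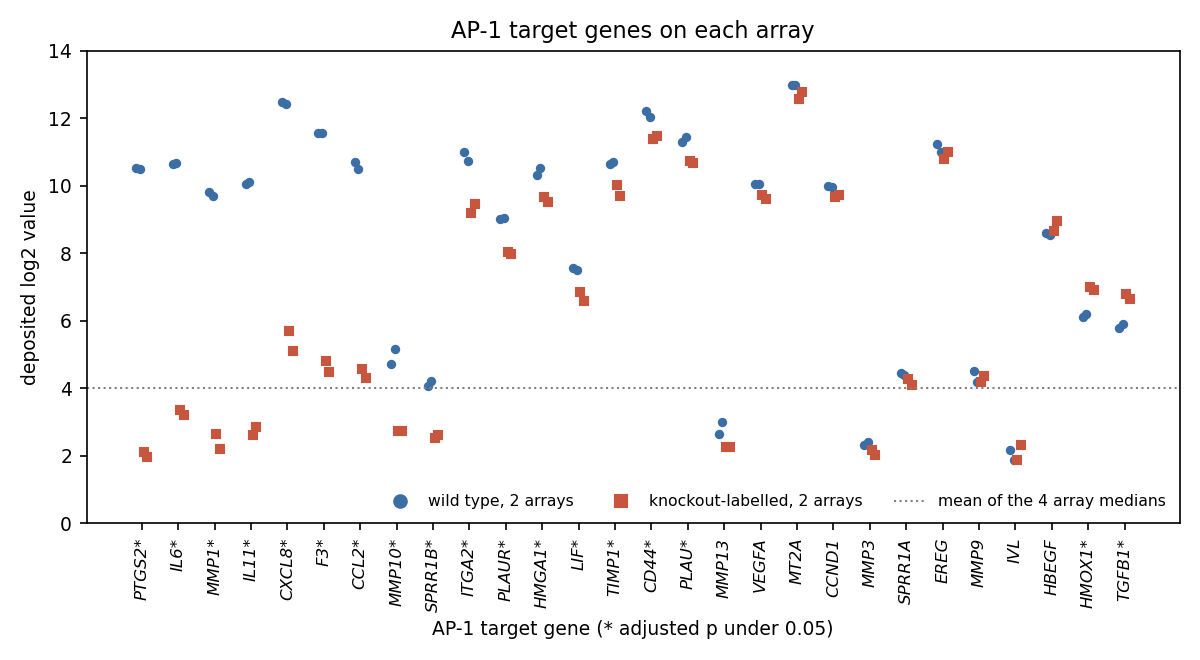
Deposited log2 value (vertical axis) of 28 AP-1 target genes on the 2 wild-type arrays (circles) and the 2 knockout-labelled arrays (squares), ordered by difference; asterisks mark an adjusted p under 0.05 and the dotted line is the mean of the array medians. In the 7 leftmost genes the groups lie more than 6 log2 units apart, and the 2 rightmost are those that rose.

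The targets that fell were searched for TGACTCA in the same windows. Of the 16 that fell, 13 had a window and 5 of these held the site, and of the targets that did not fall 6 had a window and 3 held it. The share among all windows was 4.95%, which counts single windows, whereas a gene counted here if any of its windows held the site. Because the genes were listed as known AP-1 targets, a share above that of all windows is not independent evidence. The 5 sites of targets that fell are shown in 30 bases on the strand of the gene, as the DNA that the AP-1 pairs described above are known to bind. TGAGTCA is the same site read on the opposite strand.
CXCL8 (chr4:73740420-73740449, plus strand): taggaagtgtgaTGACTCAggtttgccctg
F3 (chr1:94541952-94541981, minus strand): gaatcactggggTGAGTCAtcccttgcagg
IL11 (chr19:55370542-55370571, minus strand): aggcagggagggTGAGTCAggatgtgtcag
PLAUR (chr19:43670338-43670367, minus strand): atcacaactccaTGAGTCAgggccgagcca
SPRR1B (chr1:153031050-153031079, plus strand): catcacaaaagtTGAGTCAacaggtgggtg
CXCL8, F3 and IL11 were among the 7 genes with the largest falls, and PLAUR and SPRR1B fell by 1.02 and 1.57 on the log2 scale. SPRR1B, a cornified envelope protein, stood at 4.06 and 4.20 in the wild type, close to the array medians. The site therefore occurred in targets with large and small falls and in targets that did not fall.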

How the data were processed

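The authors deposited 1 table with 54613 probe sets and 4 arrays. RMA and affy are named, per the submitters' processing notes, with no version stated. RMA corrects background, normalizes arrays to 1 distribution and gives no detection call. The authors' deposited values were read as log2. They ran from 0.87 to 13.9, with array medians of 3.99 to 4.03. Of the probe sets 3138 (5.75%) held identical values on at least 2 arrays, with a median level of 2.53, among them 2 member probe sets. Names came from the platform annotation of 2016, which gave 1 symbol for 41091 probe sets, and RefSeq matched 41037 of these by gene identifier. Promoter sequences were those of RefSeq on GRCh38.p14.

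The groups were compared over all probe sets with limma 3.58.1 in R 4.3.3 (lmFit, eBayes), with Benjamini-Hochberg adjustment over all of them, a threshold of 0.05 and no filter. Lists were described by counts and medians, without a set test. Named were all members, up to 4 genes past the threshold with the largest differences per list, and the 3 genes closest to the member with the largest difference. Of 142 listed related genes 124 had a value, and the others were not analysed here. The members and lists were chosen with earlier results of these data known. An exact permutation test of 2 arrays against 2 cannot go below p = 0.333. The fit was tested on simulated data. Python 3.11.15 searched the promoters and drew the plots. The number of arrays limits the precision.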

Additional observations from a re-analysis of the deposited data

How the results depend on the processing

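Among the 10 AP-1 genes, MAFF passed the threshold under all 15 other settings (−2.82 to −2.36), and JUNB under none of its 15 (−0.25 to −0.12, limma adjusted p from 0.144). BATF3 passed under 5, for example with 1 probe set a gene tested (limma adjusted p = 0.0368, over all settings 0.0255 to 0.274), and JUN under 4, for example with a variance trend (adjusted p = 0.00406, over all settings 0.00406 to 0.357). ATF3 turned to 0.11 when _x_at and _s_at probe sets were removed, because a dimmer probe set then stood in for its brightest. FOS and FOSB became 0 with values under 4 set to 4. That floor lowered the counts past the threshold from 14686 to 7455 probe sets, from 18 to 10 AP-1 targets, from 15 to 9 zipper factors and from 10 to 4 MAP kinase inhibitors. Removing _x_at and _s_at probe sets, which leaves fewer to test, gave 9125 probe sets and 7 of the immediate early genes. That step left no probe set for JUND, and 3 member genes passed.

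With each array left out in turn, the counts past the threshold ran from 2627 to 10167 for all probe sets, from 2 to 8 for member probe sets, and from 1 to 4 for member genes. For related genes they ran from 9 to 15 (AP-1 targets), 1 to 13 (zipper factors), 4 to 9 (kinases), 0 to 7 (MAP kinase inhibitors), 0 to 2 (serum response genes) and 2 to 8 (immediate early genes). ATF3 ran from −0.39 to 0.0068. The lone array left in a group was assumed to vary like the other group. The lowest counts came without a wild-type array, and the cause was not tested. With the replicate number as a block, 12903 probe sets, 9 member probe sets and 4 member genes passed. Deviations of same-numbered arrays correlated at 0.06, which with 2 arrays a group cannot show whether the number pairs the arrays. Leaving out probe sets with identical values on any 2 arrays, a step added after the data were seen, kept 9 member probe sets and 4 member genes past the threshold. Fits on 1 value a gene give no probe set counts. With 2 arrays a group, small differences in dim genes are not detectable here.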
